A study of Danio rerio with 44 samples.

Results

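PFECHS (perfluoroethylcyclohexane sulphonate) is a perfluorinated sulphonate with a ring in its carbon skeleton, used in place of older compounds such as PFOS (perfluorooctane sulphonate), which has a chain. RNA was sequenced from whole zebrafish, wild type, that had spent the 72 h from 24 to 96 h after fertilization in PFECHS at 5 mg/L, the highest of 4 concentrations. Its 3 pools are set against the 3 pools of the PFECHS solvent control, 6 of the 44 samples of the series, chosen by their labels. Exposed and control embryos all received 0.1% DMSO, were kept at 26 °C and had about 80% of their solution renewed each day. Each sample was RNA with an integrity number above 8 from 20 embryos pooled together, and the p-values therefore speak of the spread among pools, not among single fish. Nothing in the labels says whether the pools of a group came from separate dishes. The other samples used here are the pools at 0.001, 0.1 and 1 mg/L PFECHS (3 each), and the 5 mg/L and solvent control pools of PFOS and of FBSA (perfluorobutane sulphonamide). The series asked how sub-lethal and environmental concentrations of these compounds act on the transcriptome.

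At the age sampled, the larva is completing its first skeleton. Chondrocytes of the jaw, gill arches and braincase secrete a matrix of type II, IX and XI collagen fibrils and of the proteoglycan aggrecan, held together by link proteins and matrilins, and some of them enlarge and switch on type X collagen as bone forms around them. Transcription factors of the Sox family start and keep up this programme. Perfluorinated sulphonates bind serum proteins, collect in liver and blood, and are often studied for effects on liver lipid genes through PPAR receptors.

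The deposited values were estimated counts of reads per gene, and levels are given below as CPM, counts scaled to library size. The library totals were 25990975, 25991330 and 27424092 counts in the controls and 30770871, 27218461 and 29314103 counts at 5 mg/L, where 1 count equals 0.0325 to 0.0385 CPM. All 37 markers of organs such as lens, liver, muscle, gut and brain that were tested had reads in every pool (lowest level 0.182 CPM). Between 67.7% and 74.9% of the values of the 5 mg/L libraries were not whole numbers, against 54.1% to 61.4% in the controls and 55.6% to 69.1% in the lower concentrations, and the third 5 mg/L library stood in another part of the deposited table than the other PFECHS libraries. That library also held 47.9 CPM of the mitochondrial transcript MT-ND6 (ENSDARG00000063922), where the other 5 pools held 13.6 to 19.2 CPM. In these 6 pools the share of values that are not whole and the exposure go together and cannot be fully told apart. Values with this share as a covariate, a setting added after seeing the data, are therefore given beside the main results within PFECHS. The comparisons with PFOS and FBSA were not run with this covariate.

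No gene differed between 5 mg/L and control by edgeR's quasi-likelihood test after Benjamini-Hochberg adjustment over 21683 genes. The smallest adjusted p was 0.324. Before adjustment, 1460 genes were higher and 1239 lower at a p under 0.05 (6.73% and 5.71% of all genes tested). The 3 exposed pools lay above all 3 controls in 2541 genes (11.7%) and below them in 2462 (11.4%). The split rested on the scaling: with upper-quartile factors it was 1829 higher and 778 lower, that is 70.2% higher in place of 54.1%, and with RLE factors it was 1362 higher and 1391 lower, 49.5% higher. Other tools on the same libraries called genes: DESeq2 called 28 (20 higher, 8 lower) and limma-voom with sample quality weights called 777 (462 higher, 315 lower), and 27 genes were in both. The larger differences were mostly upward. Of genes with at least a 2-fold difference, a p under 0.05 before adjustment and no overlap, 252 were higher and 16 lower. Below, no gene is said to have passed the edgeR threshold unless that is stated, and counts at a p under 0.05 are edgeR's before adjustment.

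The 12 genes with the smallest p among those higher included matrix and mesenchyme genes, epidermal genes and regulators of other kinds. Each of the 24 genes in this and the next paragraph had an edgeR adjusted p of 0.324, and each was chosen for its small p and for pools that did not overlap, so that separation is not a finding. The lowest p among those higher belonged to fgfbp2b (ENSDARG00000038056), which encodes a secreted protein that binds fibroblast growth factors. It stood at 20.6, 20.8 and 25.3 CPM in the controls and 30.7, 37.8 and 42.1 CPM at 5 mg/L. All exposed pools were higher than all controls, by 0.73 ± 0.13 (SE) on the log2 scale. MATN1 (ENSDARG00000030215), the cartilage matrilin, stood at 52.6, 29.3 and 50.0 CPM in the controls and 85.5, 149 and 153 CPM at 5 mg/L, a log2 difference of 1.56 ± 0.29. The enamel matrix gene enam (ENSDARG00000092730) stood at 4.45, 3.06 and 3.35 CPM against 9.06, 10.4 and 11.0 CPM, a log2 difference of 1.49 ± 0.31. These genes were higher in each of the 3 exposed pools, and the first exposed pool had the lowest level of the 3 in all of them. PDGFRA (ENSDARG00000070494), a growth factor receptor of mesenchyme, had 35.8, 32.7 and 36.8 CPM in the controls against 51.9, 56.8 and 49.1 CPM. CCN2 (ENSDARG00000042934), connective tissue growth factor, had 34.4, 32.4 and 29.5 CPM against 51.3, 49.4 and 57.1 CPM. The log2 differences of this pair were 0.58 ± 0.11 and 0.71 ± 0.15. The others of the 12 were the matrix genes THBS3 (ENSDARG00000012060, a thrombospondin, 1.06 ± 0.24) and HMCN1 (ENSDARG00000016936, hemicentin, 0.58 ± 0.13), the epidermal genes krt94 (ENSDARG00000044975, a keratin, 0.79 ± 0.18) and eppk1 (ENSDARG00000096359, epiplakin, 1.00 ± 0.23), HDAC5 (ENSDARG00000075139, a histone deacetylase, 0.68 ± 0.14), IL16 (ENSDARG00000102908, a cytokine, 0.88 ± 0.19) and RTKN (ENSDARG00000031345, 0.87 ± 0.20).

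The 12 genes with the smallest p among those lower at 5 mg/L had smaller differences, from -0.65 to -0.37. Several act in cell division and RNA processing. CDC20 (ENSDARG00000100741), the activator of the anaphase-promoting complex, stood at 18.6, 21.0 and 16.1 CPM in the controls and 12.9, 11.9 and 13.1 CPM at 5 mg/L (-0.55 ± 0.12). CDK2AP2 (ENSDARG00000103145), a partner of the cell cycle kinase CDK2, stood at 25.7, 31.6 and 29.8 CPM against 19.4, 20.6 and 19.7 CPM (-0.54 ± 0.10). The exposed pools of both genes lay close together and below every control. CRH (ENSDARG00000027657), the hypothalamic hormone that starts the stress axis, stood at 7.86, 8.66 and 7.61 CPM against 5.46, 5.23 and 4.67 CPM (-0.65 ± 0.15). The neural genes SOX3 (ENSDARG00000053569, a factor of neural progenitors, -0.49 ± 0.12) and NEUROD6 (ENSDARG00000020794, a neuronal differentiation factor, -0.45 ± 0.11) were among them. So were the homeobox gene IRX3 (ENSDARG00000101076, -0.43 ± 0.10), the splicing factor BUD31 (ENSDARG00000017084, -0.43 ± 0.10), the double-stranded RNA binding genes ILF2 (ENSDARG00000014591, -0.40 ± 0.09) and znf346 (ENSDARG00000060695, -0.45 ± 0.11), the chromatin gene hp1bp3 (ENSDARG00000044669, -0.38 ± 0.09), arl6ip4 (ENSDARG00000105036, -0.50 ± 0.12) and the deubiquitinase OTUB1 (ENSDARG00000011462, -0.37 ± 0.09).

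DESeq2 called 18 of these 24 genes and limma-voom with sample quality weights called all 24. The DESeq2 adjusted p was 0.00115 for MATN1, 0.00499 for fgfbp2b and for PDGFRA, 0.0124 for enam, 0.0239 for CCN2, 0.0056 for CDK2AP2, 0.0303 for CDC20 and 0.0424 for CRH. The limma-voom adjusted p was 0.0191 for MATN1, fgfbp2b, PDGFRA and enam. The sign of the fold change was the same under every setting tried for all 24 genes. They were chosen by p and by pools without overlap in these same data. The kept signs and the calls of the other tools are therefore not independent support.

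**Figure D1:**
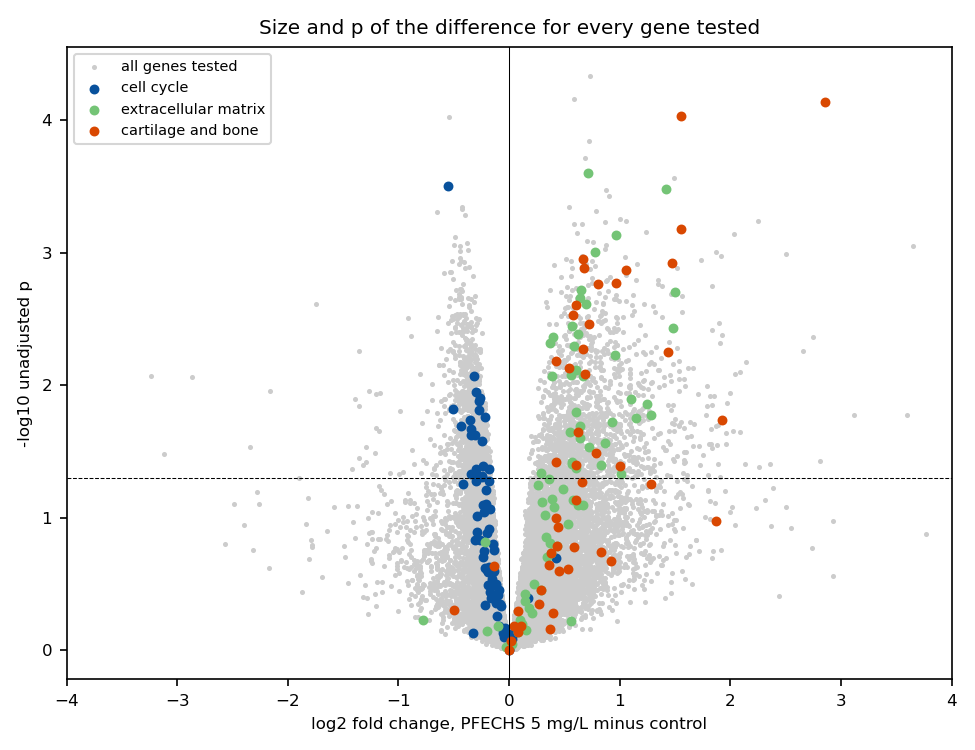
Log2 fold change at 5 mg/L PFECHS against solvent control (horizontal axis) and -log10 of the edgeR p before adjustment (vertical axis) for each gene tested, with members of the cartilage and bone, extracellular matrix and cell cycle lists coloured; the dashed line marks a p of 0.05. Of the 49 cartilage and bone genes 23 lie above the line on the right and 0 on the left, and of the 73 cell cycle genes 21 lie above it on the left.

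Cartilage and bone genes were higher as a group. The members of this list and of those below were chosen with earlier results of these data known. The counts therefore describe the lists and do not test them. Of the 49 tested, 23 were higher and 0 lower at a p under 0.05 before adjustment, beside 6.73% and 5.71% of all genes. The exposed pools lay above all controls in 22 and below them in 1, beside 11.7% and 11.4%. The median log2 fold change was 0.60, against 0.02 over all genes. The mean level of the list was 3.90, 3.77 and 3.58 log2 CPM in the controls and 4.31, 4.60 and 4.31 log2 CPM at 5 mg/L. All exposed pools were above all controls, with the second exposed pool highest and the third control lowest. The third pool at 0.001 mg/L, at 4.33 log2 CPM, lay above the first and the third 5 mg/L pool. DESeq2 called 3 members and limma-voom 16, all higher, where they called 20 and 462 higher over all genes. In bulk RNA from whole animals, fewer cells of a type and less RNA per cell cannot be told apart, nor can more cells and more RNA per cell. Leaving out any 1 pool gave 18 to 29 members higher at a p under 0.05, beside 807 to 1604 of all genes. With the share of values that are not whole as a covariate 5 members were higher at a p under 0.05, with a median of 0.46. In that fit 162 of the 21683 genes tested were higher and 83 lower.

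Most genes of the cartilage fibril were higher. COL9A2 (ENSDARG00000024492), a chain of the type IX collagen that coats the fibrils, stood at 199, 144 and 138 CPM in the controls and 221, 304 and 240 CPM at 5 mg/L (0.67 ± 0.17). Its partner col9a3 (ENSDARG00000037845) stood at 177, 139 and 125 CPM against 210, 279 and 215 CPM (0.67 ± 0.17). Both had their highest level in the second exposed pool, and no exposed pool overlapped the controls. The type II collagen gene COL2A1 (ENSDARG00000069093), the bulk of the fibril, stood at 1205, 963 and 824 CPM against 1257, 1622 and 1467 CPM (0.54 ± 0.17, edgeR adjusted p = 0.324), and its second copy COL2A1 (ENSDARG00000011407) was higher by 0.42 ± 0.18. For the first copy the lowest exposed pool lay only just above the highest control. COL11A2 (ENSDARG00000012422), of the type XI collagen in the fibril core, was higher by 0.81 ± 0.21, while COL11A1 (ENSDARG00000026165) had a value of 0.42 ± 0.24 (edgeR adjusted p = 0.476) with pools that overlapped.

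Genes of the aggregating matrix around the fibrils were higher as well. The aggrecan gene acana (ENSDARG00000035891) stood at 4.90, 4.05 and 5.32 CPM in the controls and 6.47, 13.7 and 9.58 CPM at 5 mg/L. Every exposed pool was above the controls, the second by the most, and the log2 difference was 1.06 ± 0.27 (edgeR adjusted p = 0.324). HAPLN1 (ENSDARG00000068516) and hapln1a (ENSDARG00000089769), link proteins that tie aggrecan to hyaluronan, were higher by 0.97 ± 0.25 and 0.58 ± 0.16. MATN4 (ENSDARG00000015947), a matrilin like MATN1, was higher by 0.60 ± 0.17, and epyc (ENSDARG00000056950), the small proteoglycan epiphycan, by 0.67 ± 0.20. MIA (ENSDARG00000052437), a small protein secreted by cartilage cells, had the lowest p of the whole list. It stood at 0.162, 0.265 and 0.291 CPM against 0.915, 2.26 and 2.13 CPM, a log2 difference of 2.85 ± 0.53 (edgeR adjusted p = 0.324) at a level of few counts per library. DESeq2 called it with an adjusted p of 0.00502.

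Several genes of cartilage enlargement and mineral were higher. The type X collagen gene COL10A1 (ENSDARG00000054753), the mark of enlarging chondrocytes and of early bone cells in fish, stood at 10.3, 8.85 and 9.28 CPM in the controls and 28.6, 32.3 and 17.9 CPM at 5 mg/L. The controls were tight and every exposed pool was well above them, with a log2 difference of 1.47 ± 0.37 (edgeR adjusted p = 0.324, DESeq2 adjusted p = 0.0424). A second gene with that symbol (ENSDARG00000101535) was near the limit of detection, with 0.40 ± 0.61. ENTPD5 (ENSDARG00000053481), a nucleotidase needed for mineral deposition in zebrafish, was higher by 1.56 ± 0.36. The bone phosphoprotein gene spp1 (ENSDARG00000044276) was higher by 1.43 ± 0.44, the alkaline phosphatase ALPL (ENSDARG00000015546) by 0.42 ± 0.13 and the channel gene PANX3 (ENSDARG00000004627) by 1.00 ± 0.45. The type I collagen genes of bone and skin did not reach a p of 0.05: col1a1a (ENSDARG00000012405) stood at 1223, 887 and 618 CPM in the controls and 1215, 1243 and 1223 CPM at 5 mg/L. The exposed pools of that gene were alike, and its controls were spread over a wide range that reached them.

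None of the transcription factors of these cells named here reached a p of 0.05. The pair of SOX9 genes, the master regulator of chondrocytes, had values of -0.14 ± 0.11 (ENSDARG00000043923, edgeR adjusted p = 0.609) and 0.11 ± 0.24 (ENSDARG00000003293). SOX5 (ENSDARG00000011582) and SOX6 (ENSDARG00000015536), its partners, had 0.08 ± 0.12 and 0.04 ± 0.09, and the MEF2C genes (ENSDARG00000009418 and ENSDARG00000029764), which drive enlargement, had 0.02 ± 0.09 and 0.00 ± 0.10. The osteoblast factors SP7 (ENSDARG00000019516, 0.27 ± 0.35) and runx2b (ENSDARG00000059233, -0.50 ± 0.72) were at low levels with wide errors. The signal gene ihhb (ENSDARG00000058815), an Indian hedgehog of growing cartilage, was higher by 1.93 ± 0.73 (edgeR adjusted p = 0.353) from levels of 0.0728 to 0.121 CPM in the controls. These members, and the others beyond the first 3 by p in a list, are named for their roles and were chosen after their values were seen.

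**Figure D2:**
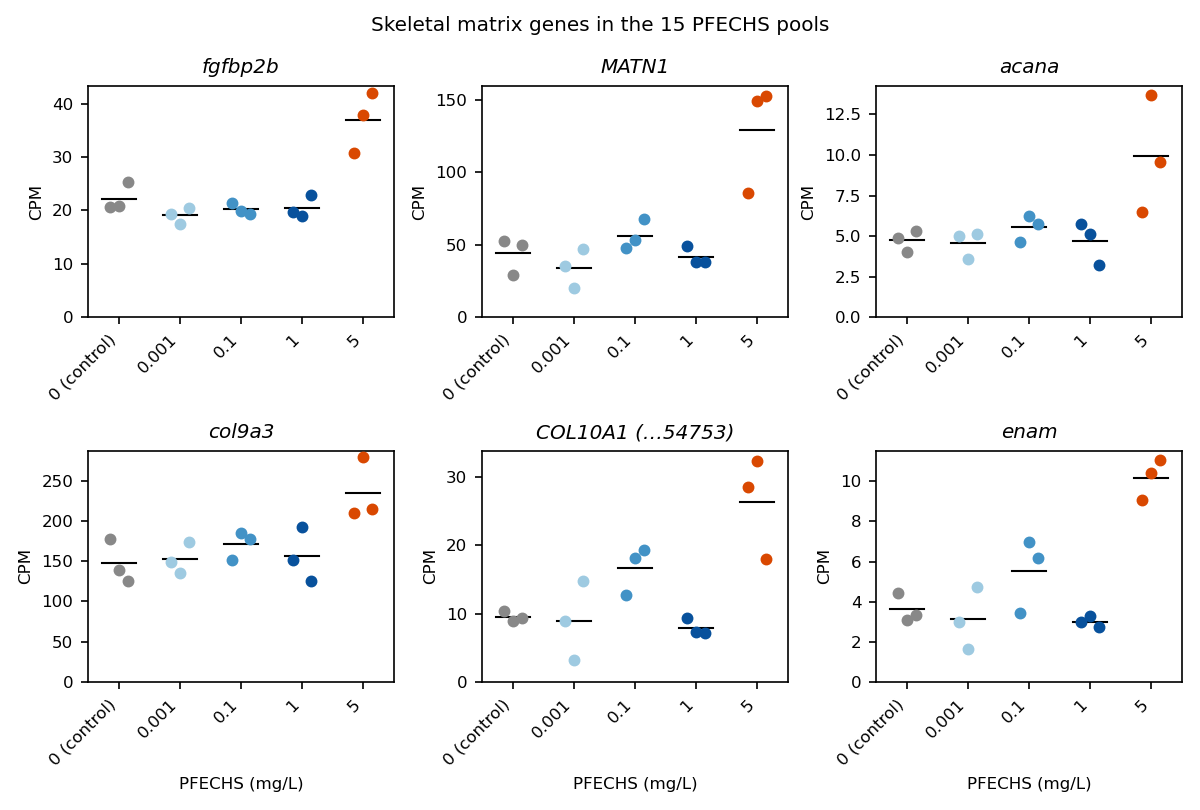
CPM of fgfbp2b, MATN1, acana, col9a3, COL10A1 (ENSDARG00000054753) and enam in the 15 PFECHS pools, by concentration from the solvent control to 5 mg/L; dots are pools and lines are group means. The 5 mg/L pools of fgfbp2b, MATN1 and enam lie above every other pool, while at 0.1 mg/L some pools of enam reach 6.17 and 6.97 CPM.

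The extracellular matrix list, which holds matrix genes of many tissues, was higher as well. Of 71 genes, 36 were higher and 0 lower at a p under 0.05 before adjustment, beside 6.73% and 5.71% of all genes. The exposed pools lay above all controls in 41 and below them in 0, beside 11.7% and 11.4%. The median was 0.55. The list mean was 4.53, 4.21 and 4.09 log2 CPM in the controls and 4.74, 4.92 and 4.70 log2 CPM at 5 mg/L, with no overlap. The third pools at 0.001 and 0.1 mg/L, at 4.95 and 4.94 log2 CPM, lay above all 5 mg/L pools. DESeq2 called 3 members and limma-voom 24, all higher, where they called 20 and 462 higher over all genes. After CCN2, the smallest p were those of col5a2b (ENSDARG00000024847, a fibril collagen, 1.42 ± 0.31) and col6a4a (ENSDARG00000079752, a type VI collagen, 0.97 ± 0.23). Of the fibril collagens col5a2b had 0.769, 0.643 and 1.02 CPM in the controls against 2.34, 2.01 and 2.20 CPM. The exposed pools were close to each other, and each was above the highest control. Basement membrane genes were COL4A1 (ENSDARG00000055009, 1.28 ± 0.48), COL4A2 (ENSDARG00000104110, 1.48 ± 0.43), the laminin lama2 (ENSDARG00000099390, 1.50 ± 0.40) and the nidogen NID2 (ENSDARG00000075707, 0.65 ± 0.17). The fibronectin genes FN1 (ENSDARG00000019815 and ENSDARG00000006526) were higher by 0.56 ± 0.18 and 0.83 ± 0.37. The membrane protease MMP14, which cuts collagen, was higher in both copies (ENSDARG00000002235, 0.77 ± 0.19, and ENSDARG00000008388, 0.61 ± 0.22). Of the tenascin genes TNC, the first (ENSDARG00000078362) was higher by 0.39 ± 0.12 and the second (ENSDARG00000021948) had 0.01 ± 0.09. Without the second exposed pool 20 members were higher at a p under 0.05, and with the share of values that are not whole as a covariate 3 were, with a median of 0.33. Over all genes these settings gave 807 and 162 higher.

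Cardiac muscle genes were higher in 13 of 40 cases and lower in 0 at a p under 0.05 before adjustment. Over all genes, 6.73% were higher and 5.71% lower. The median of the cardiac list was 0.44. Its exposed pools lay above all controls in 16 genes, beside 11.7% of all genes. The third pool at 0.001 mg/L had a list mean of 2.95 log2 CPM, above all 5 mg/L pools (2.838 to 2.897). TNNT2 (ENSDARG00000020610), the troponin T of heart muscle, stood at 3.08, 2.04 and 2.51 CPM in the controls and 5.08, 5.05 and 5.65 CPM at 5 mg/L (1.05 ± 0.26, edgeR adjusted p = 0.324). The exposed pools were nearly equal and well clear of the controls. The myosin heavy chains MYH6 (ENSDARG00000079564, atrial in zebrafish) and MYH7 (ENSDARG00000079782) were higher by 0.55 ± 0.15 and 1.11 ± 0.30, and the light chain MYL7 (ENSDARG00000019096) by 1.18 ± 0.45. The natriuretic peptide gene nppa (ENSDARG00000052960), at 0.688, 0.265 and 0.255 CPM against 1.67, 1.58 and 0.349 CPM, had a value of 1.58 ± 0.70 with an exposed pool within the range of the controls. The skeletal muscle list, which shares members with the heart, had 13 of 85 higher and a median of 0.29, and its list means overlapped (6.62 to 7.11 log2 CPM in the controls, 6.92 to 7.27 at 5 mg/L). Without the third control 7 cardiac genes were higher at a p under 0.05, and with the covariate 3. Over all genes these settings gave 1453 and 162 higher. With lists matched by the same symbol only, 18 extracellular matrix genes and 8 cardiac genes were higher.

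Liver and plasma protein genes had high medians. Their counts at a p under 0.05 in the main fit are to be read beside 6.73% of all genes higher and 5.71% lower. The medians were 0.55 for the liver list (4 of 59 higher, 0 lower), 0.63 for complement and acute phase genes (3 of 35), 0.55 for lipoproteins (4 of 26) and 0.56 for exocrine pancreas (2 of 30 higher, 1 lower). The list means of the first 3 did not overlap. For the liver they were 2.36, 2.44 and 1.89 log2 CPM in the controls and 2.70, 2.91 and 2.85 log2 CPM at 5 mg/L. The third pool at 0.001 mg/L and the first at 1 mg/L, at 3.64 and 3.49 log2 CPM, were higher still. Of the 6 pools the third control was the lowest in all of these lists, and it also had the lowest score of the 15 PFECHS pools on the first principal component. The fatty acid binding protein of liver fabp10a (ENSDARG00000038439) stood at 22.1, 31.2 and 22.1 CPM against 49.0, 98.5 and 120 CPM (1.83 ± 0.66, edgeR adjusted p = 0.344). All exposed pools were above the controls and spread widely among themselves. APOB (ENSDARG00000042780), the core protein of very low density lipoprotein, stood at 4.90, 6.62 and 3.79 CPM against 12.5, 14.7 and 14.2 CPM (1.43 ± 0.52), and ABCB11 (ENSDARG00000070078), the bile salt pump, was higher by 1.61 ± 0.64. The complement gene c3b.1 (ENSDARG00000093068) was higher by 1.13 ± 0.49. When only the 6 pools entered the fit, 28 liver, 14 complement and 13 lipoprotein genes were higher at a p under 0.05. In that fit 2002 of all genes were higher, against 1460 in the main fit. With the covariate the counts were 0, 1 and 0, beside 162 of all genes, and the medians 0.41, 0.39 and 0.39. Leaving out 1 pool gave 0 to 5 liver genes: 0 without the third exposed pool, and 1 without the second exposed pool, the second control or the third control. Over all genes, leaving out 1 pool gave 807 to 1604 higher. Of the complement genes 0 were higher without the second or the third exposed pool and 1 without the third control, and of the lipoprotein genes 1 was higher without the second control and 7 without the first, while 2 were without the third control, the second exposed pool or the third.

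**Figure D3:**
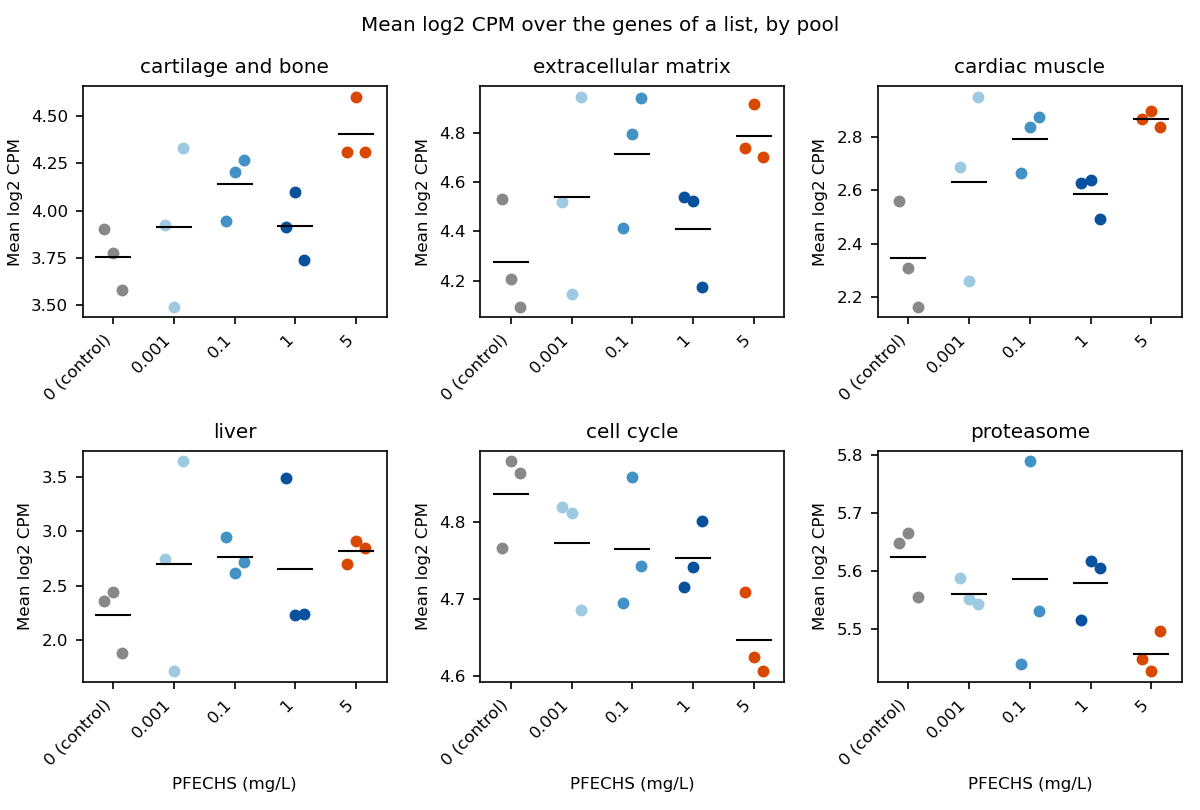
Mean log2 CPM of 6 gene lists (cartilage and bone, extracellular matrix, cardiac muscle, liver, cell cycle, proteasome) in each of the 15 PFECHS pools, by concentration; dots are pools and lines are group means. The 5 mg/L pools lie above the 3 controls in the first 4 lists and below them in the cell cycle and proteasome lists. In all 6 lists some pools at lower concentrations reach the range of the 5 mg/L pools.

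Genes of dividing cells were lower by small amounts. Of 73 cell cycle genes, 21 were lower and 0 higher at a p under 0.05 before adjustment, beside 5.71% and 6.73% of all genes. The exposed pools lay below all controls in 28 and above them in 1, beside 11.4% and 11.7%. The median was -0.20. The list mean was 4.77, 4.88 and 4.87 log2 CPM in the controls and 4.71, 4.62 and 4.61 log2 CPM at 5 mg/L. PCNA (ENSDARG00000054155), the sliding clamp of DNA replication, stood at 280, 304 and 289 CPM against 244, 228 and 257 CPM (-0.26 ± 0.09). CDK1 (ENSDARG00000087554) and its cyclin CCNB1 (ENSDARG00000051923), which drive entry into mitosis, had -0.35 ± 0.13 and -0.31 ± 0.10, and the replication protein RPA2 (ENSDARG00000037188) had -0.30 ± 0.10. Each of these had all exposed pools below all controls. DESeq2 called 1 member lower, CDC20, and limma-voom 3, where they called 8 and 315 lower over all genes. Without the second control 4 members were lower at a p under 0.05, and without the third control or the second exposed pool 11 were. With the covariate 0 were, and the median was -0.11. Over all genes, 520 were lower without the second control, 1076 without the third, 819 without the second exposed pool and 83 with the covariate.

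Proteasome genes had a median of -0.19. Of 47, 12 were lower and 1 higher at a p under 0.05, beside 5.71% and 6.73% of all genes. The higher gene was PSME4 (ENSDARG00000087911), a proteasome activator, at 0.33 ± 0.14, and the smallest p among the lower ones was that of the lid subunit PSMD11 (ENSDARG00000060150, -0.22 ± 0.08). With the list matched by the same symbol only, 7 were lower. Leaving out single pools gave 1 lower gene without the second control, 3 without the first control or the second exposed pool, and 6 without the first exposed pool. Over all genes those settings gave 520, 1023, 819 and 1617 lower in the same order. With the covariate the median was -0.02 and 0 genes were lower at a p under 0.05, beside 83 of all genes. With upper-quartile scaling 12 cell cycle and 2 proteasome genes were lower, beside 778 of all genes.

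Within the nervous system lists genes lay in both directions, and the medians were -0.06 for neurons (0.02 with the covariate) and 0.08 for glia and myelin. Of 78 neuron genes, 11 were higher and 9 lower at a p under 0.05. Over all genes, 6.73% were higher and 5.71% lower, which applies to each list in this paragraph. Those higher include channels and filaments of neurons: the neurofilament nefma (ENSDARG00000021351) was higher by 0.70 ± 0.20 and the sodium channel SCN8A (ENSDARG00000018032) by 0.50 ± 0.15. Those lower include genes of axon outgrowth: gap43 (ENSDARG00000099744) had -0.31 ± 0.14, the STMN2 genes (ENSDARG00000070537 and ENSDARG00000033234) -0.31 ± 0.12 and -0.26 ± 0.10, and the tubulin tuba1c (ENSDARG00000055216) -0.40 ± 0.13. Limma-voom called 7 neuron genes higher and 3 lower, where it called 462 higher and 315 lower over all genes. In the glia list, 6 of 31 genes were higher and 5 lower. The myelin genes mbpa (ENSDARG00000036186, 0.51 ± 0.17) and mag (ENSDARG00000104023, 0.59 ± 0.24) and SOX10 (ENSDARG00000077467, a neural crest and glial factor, 0.47 ± 0.13) were among the first. FABP7 (ENSDARG00000007697), of radial glia, stood at 950, 1091 and 938 CPM against 777, 635 and 715 CPM (-0.49 ± 0.19), and the progenitor factor OLIG2 (ENSDARG00000040946) had -0.37 ± 0.13. In the eye the red cone opsin opn1lw2 (ENSDARG00000044861) stood at 1208, 1354 and 1298 CPM against 860, 844 and 808 CPM (-0.62 ± 0.19). The exposed pools of the opsin were close together and far below the controls, while the phototransduction list as a whole had a median of -0.06, with 2 of 64 higher and 5 lower.

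Several lists hold genes that perfluorinated compounds are often tested for. Over all genes, 6.73% were higher and 5.71% lower at a p under 0.05 before adjustment. Whether these lists differed from each other was not tested. The fatty acid oxidation list had a median of 0.05 (2 of 44 higher, 0 lower). The carnitine transferases CPT1A (ENSDARG00000059770) and CPT1B (ENSDARG00000058285) had -0.11 ± 0.10 and 0.37 ± 0.25. Of 16 PPAR and RXR receptor genes, 3 were higher and 0 lower at a p under 0.05 before adjustment: PPARD (ENSDARG00000044525, 0.92 ± 0.38), PPARA (ENSDARG00000054323, 0.91 ± 0.39) and RXRA (ENSDARG00000057737, 0.32 ± 0.14). PPARD stood at 0.810, 0.794 and 1.13 CPM in the controls and 0.979, 2.04 and 2.20 CPM at 5 mg/L. PPARA stood at 0.769, 0.605 and 1.24 CPM against 1.07, 1.61 and 2.27 CPM. Both had an exposed pool within the range of the controls. At 0.001 mg/L the log2 value of PPARD was 0.92 as well. The list median was 0.11, and -0.08 with the covariate. Of the others pparaa (ENSDARG00000031777) had 0.13 ± 0.40 and pparg (ENSDARG00000031848) -0.37 ± 0.53. In the xenobiotic metabolism list, 8 of 50 genes were higher and 0 lower, with a median of 0.29 (0.23 with the covariate). The smallest p there were those of the cytochrome cyp2ad3 (ENSDARG00000022650, 0.28 ± 0.09), the glucuronosyltransferase ugt1b1 (ENSDARG00000097491, 0.69 ± 0.25) and the cytochrome cyp2p9 (ENSDARG00000022631, 1.02 ± 0.38). Among aryl hydrocarbon receptor targets 3 of 17 were higher, the cytochromes cyp1c1 (ENSDARG00000101195, 1.08 ± 0.34), cyp1d1 (ENSDARG00000035569, 0.48 ± 0.20) and cyp1c2 (ENSDARG00000101789, 0.77 ± 0.33). The medians were 0.04 for Nrf2 targets, 0.01 for p53 targets, -0.04 for heat shock genes, -0.12 for the unfolded protein response and -0.13 for sterol synthesis. With the covariate the last 2 turned to 0.08 and 0.03. In the thyroid axis the hormone precursor TG (ENSDARG00000020084) stood at 0.850, 0.492 and 1.38 CPM against 2.27, 2.40 and 2.20 CPM (1.33 ± 0.40). The list had 2 of 21 higher. In the stress list CRH was the 1 gene lower and hsd20b2 (ENSDARG00000031336), of cortisol breakdown, the 1 gene higher (0.73 ± 0.25).

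In the blood list TAL1 (ENSDARG00000019930), a factor of blood and vessel progenitors, stood at 52.1, 61.9 and 56.0 CPM in the controls and 41.6, 42.5 and 34.1 CPM at 5 mg/L (-0.52 ± 0.13). The list had 3 of 33 higher and 1 lower at a p under 0.05, beside 6.73% and 5.71% of all genes. The peptide transporter TAP1 (ENSDARG00000079766) of the interferon list was higher by 1.91 ± 0.47, from 0.202 to 0.227 CPM in the controls. The brain aldolase ALDOC (ENSDARG00000057661) had a value of -0.51 ± 0.13 and the pancreas factor PTF1A (ENSDARG00000014479) one of -0.74 ± 0.27. Immediate early genes had 6 of 39 lower and 1 higher, with MYC (ENSDARG00000045695) at -0.33 ± 0.11. Their median was -0.18, and 0.11 with the covariate, and the first exposed pool had the highest list mean of the 6 pools (4.16 log2 CPM). Ribosomal protein genes had 0 of 79 in either direction and a median of -0.02. Over all 50 lists, 37 medians were above 0. The count was 34 with RLE and 42 with upper-quartile scaling, so the direction of lists near 0 rests on the scaling. Under all 3 scalings the cartilage and matrix medians were at least 0.54 and the cell cycle median at most -0.15.

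**Figure D4:**
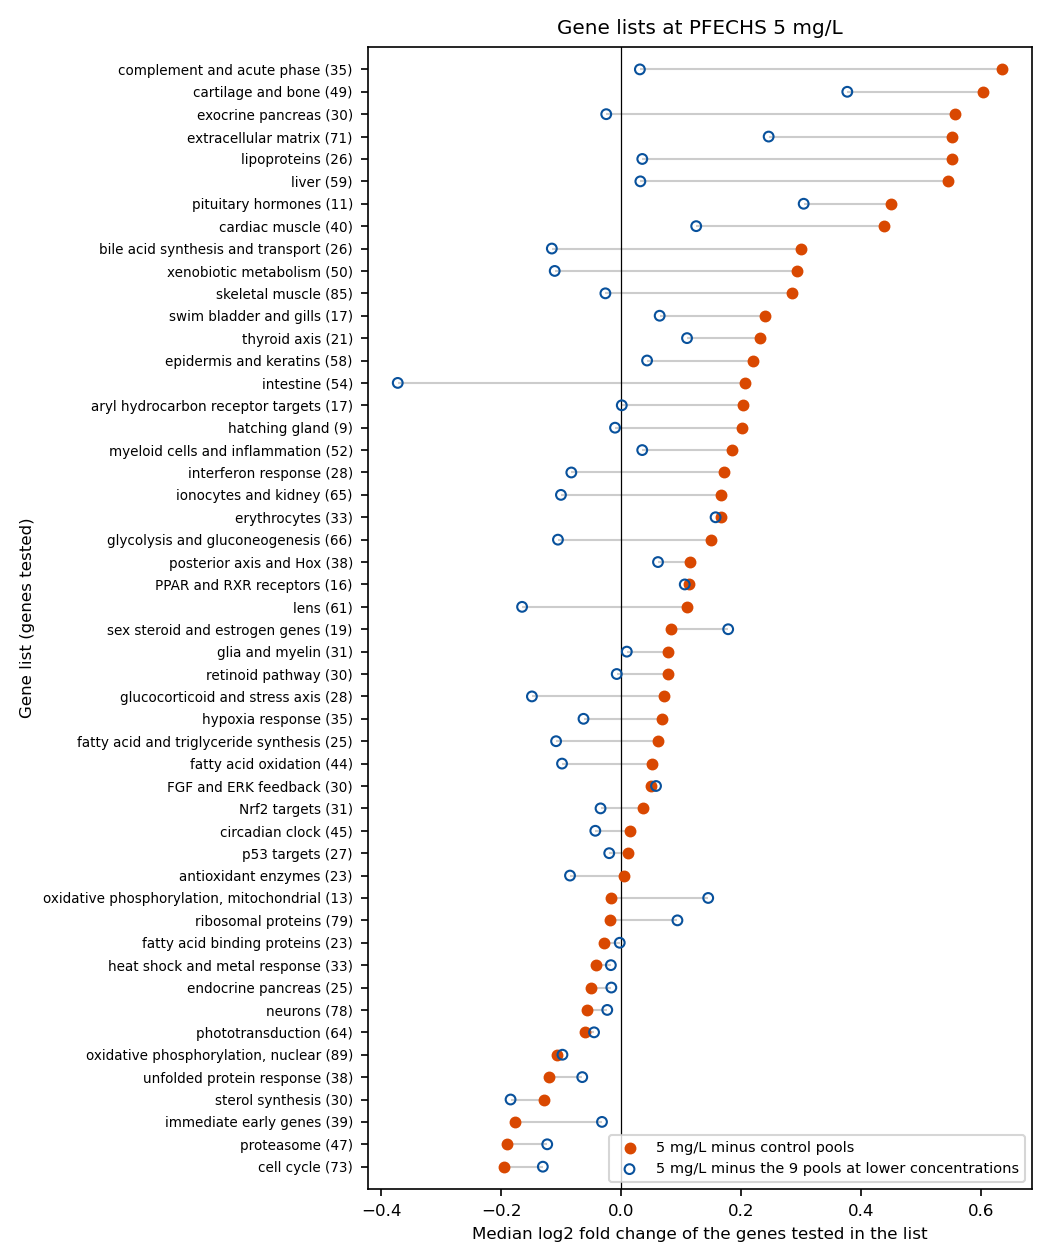
Median log2 fold change of each of 50 gene lists at 5 mg/L PFECHS, against the 3 solvent controls (filled) and against the 9 pools of the lower PFECHS concentrations (open). Cartilage and bone lies at 0.60 and 0.38, and the liver list at 0.55 and 0.03.

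The 5 mg/L pools were also set against the 9 pools at 0.001, 0.1 and 1 mg/L, a comparison that uses no control. By edgeR 2 genes passed, both higher (0.00922% of all genes), and 0 were lower. They were fgfbp2b (0.89 ± 0.10, adjusted p = 0.00553) and MATN1 (1.59 ± 0.22, adjusted p = 0.0318). The 9 lower pools of fgfbp2b ranged from 17.4 to 22.9 CPM, and those of MATN1 from 20.3 to 67.4 CPM, so neither overlapped the 5 mg/L pools. Both calls were lost without the second 5 mg/L pool (edgeR adjusted p = 0.109 and 0.575), without the third (0.132 and 0.733) and with the covariate (0.424 and 1), and both were kept without the first. The log2 differences in the same order were 0.87, 0.78 and 0.85 for fgfbp2b and 1.47, 1.44 and 1.29 for MATN1. DESeq2 called 14 genes, all higher.

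The cartilage and bone list had the highest median of the 50 lists in this comparison, 0.38. It had 19 of 49 members higher at a p under 0.05 and 0 lower, where 3.37% and 2.31% of all genes were, with 9 above all 9 lower pools (0.839% of all genes). For acana the value was 1.01, for COL10A1 (ENSDARG00000054753) 1.31 and for MIA 1.46. The extracellular matrix median was 0.25 with 14 higher and 1 lower, and the cell cycle median was -0.13 with 10 lower. The liver, complement and lipoprotein medians were 0.03, 0.03 and 0.03, the exocrine pancreas median was -0.03, and cardiac muscle had 0.12 with 3 of 40 higher. The intestine list, at 0.21 against the controls, had -0.37. Whether lists differed from each other in this was not tested.

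Each lower concentration was set against the same 3 controls, so these values share their controls with those of 5 mg/L. By edgeR 0 genes were called at any of the 3, with 1555, 2054 and 677 genes at an unadjusted p under 0.05 at 0.001, 0.1 and 1 mg/L. At 0.001 mg/L 4.42% of all genes were higher and 2.75% lower before adjustment, at 0.1 mg/L 5.64% and 3.83%, and at 1 mg/L 1.98% and 1.14%. The cartilage medians were 0.10, 0.33 and 0.06 in that order, and those of the liver list 0.72, 0.54 and 0.51. Extracellular matrix had 0.19, 0.43 and 0.08, beside 0.55 at 5 mg/L. Cardiac muscle had 0.31, 0.54 and 0.24, beside 0.44 at 5 mg/L, so its median was highest at 0.1 mg/L. For MATN1 the log2 values were -0.36, 0.36 and -0.08, for fgfbp2b -0.22, -0.14 and -0.11, and for fabp10a 1.20, 0.92 and 1.18. For MATN1 and fgfbp2b no lower concentration came near the value at 5 mg/L. Both are the genes called against the lower concentrations, so this gap follows from their choice.

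PFECHS was compared with PFOS and with FBSA at 5 mg/L, each against its own solvent controls and after the same 72 h, in a fit over all 44 libraries and 22703 genes. These are 2 pairs of compounds. Between PFECHS and PFOS, the ring and the chain sulphonate, edgeR called 0 genes, while 123 were higher in PFECHS and 118 lower before adjustment (0.542% and 0.52% of all genes), and DESeq2 called 1. A difference not called is not a sign that the compounds act alike, since the intervals are wide. For MATN1 the log2 fold change was 1.56 ± 0.42 with PFECHS and 1.48 ± 0.41 with PFOS, a difference of 0.08 with a 95% interval from -1.09 to 1.25. For fgfbp2b the difference was 0.07, from -0.67 to 0.81, and for COL10A1 (ENSDARG00000054753) it was -0.09, from -2.04 to 1.86. In this fit the list medians were 0.60 for PFECHS and 0.54 for PFOS in cartilage and bone, 0.55 and 0.57 in extracellular matrix and -0.20 and -0.36 in the cell cycle. Over all genes edgeR called 0 with PFECHS in this fit, and 3 higher (0.0132%) and 0 lower with PFOS.

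Between PFECHS and FBSA, a sulphonamide with a shorter chain, the log2 fold change differed in 2081 genes, higher with PFECHS in 1093 (4.81%) and lower in 988 (4.35%). FBSA itself had 1314 genes higher (5.79%) and 1236 lower (5.44%). By smallest p the genes higher with PFECHS were RTKN, SLC2A1 (ENSDARG00000001437, a glucose transporter), TACC1 (ENSDARG00000073753, a centrosome protein), gc2 (ENSDARG00000018329, a photoreceptor guanylate cyclase) and BNIP3L (ENSDARG00000025468, a mitophagy receptor). RTKN had 0.87 ± 0.20 with PFECHS and -1.39 ± 0.21 with FBSA, a difference of 2.25 ± 0.29 (edgeR adjusted p = 0.000154). The genes lower with PFECHS were bcl2l10 (ENSDARG00000026766, of the Bcl-2 family), EVX2 (ENSDARG00000059255, a homeobox gene), CTDSPL (ENSDARG00000071673, a phosphatase), TCIM (ENSDARG00000079497) and NKAIN4 (ENSDARG00000042961). In all 10 the value with FBSA was larger in size than that with PFECHS and of the opposite sign. They were chosen by the p of this difference, which favours opposite signs, so that pattern is not a finding. How often signs were opposite over all genes was not counted. Of the lens list, 36 of 61 genes were higher with PFECHS (median 0.11) than with FBSA (median -1.34), and 0 lower. In cartilage and bone 2 of 49 and in extracellular matrix 4 of 71 differed, all higher with PFECHS, with FBSA medians of 0.25 and 0.05. With only the 12 libraries of this pair in the fit 0 genes were called, and leaving out single pools gave 333 to 4917, the lowest without the third FBSA 5 mg/L pool and the highest without the second. Counts moved by more than 1.5 times were also 362 and 3400 without the second and the third FBSA control, 1174 and 1003 without the first and the second PFECHS control, and 1068 and 674 without the second and the third PFECHS 5 mg/L pool.

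**Figure D5:**
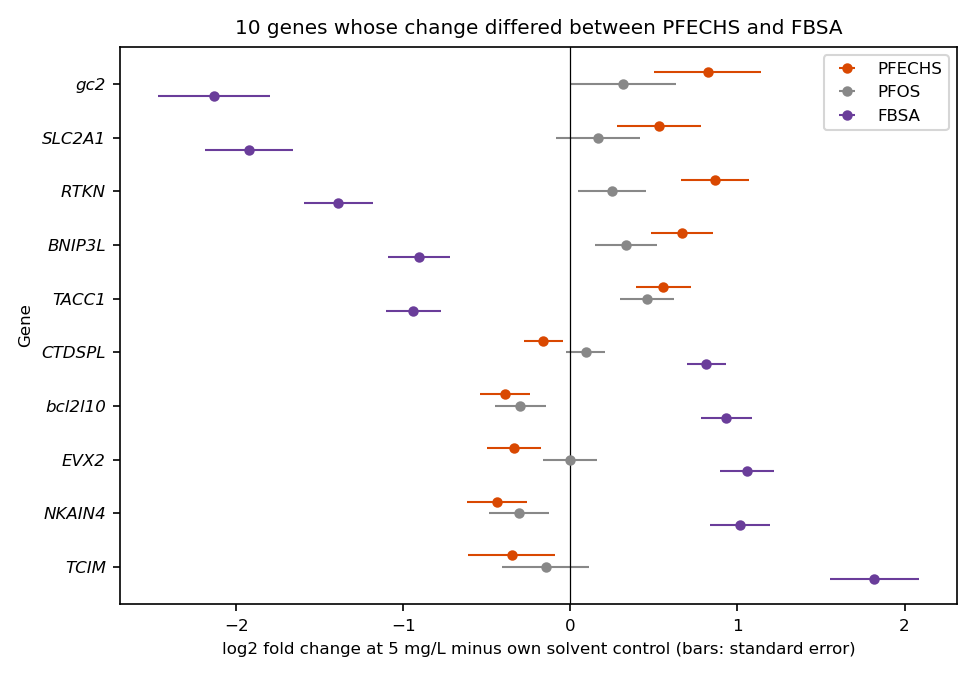
Log2 fold change at 5 mg/L against each compound's own solvent control for 10 genes, with PFECHS, PFOS and FBSA as separate points; bars are standard errors from the edgeR fit over all 44 libraries. The genes are those named for the difference between PFECHS and FBSA. In all 10 the FBSA value is larger in size than the PFECHS value and of the opposite sign, and choosing genes by this difference favours opposite signs.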

How the data were processed

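RNA was sequenced from whole zebrafish; the 15 PFECHS libraries were used for the main comparisons and all 44 for those between compounds. The deposited table holds expected counts per gene, estimated counts that need not be whole; this unit was read from the values. Per the submitters' processing notes, FastQC, MultiQC and Trimmomatic (read quality and trimming) were used. No aligner, counting program or genome build is given in the sources used here. Table columns were tied to samples through their labels, with 0 left over. The FBSA columns, spelled FSBA in the deposited table, were matched to the FBSA samples by concentration and replicate number. Groups came from the sample labels.

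Counts were rounded and filtered with filterByExpr by group. Tests used edgeR 4.0.16 in R 4.3.3 (TMM factors, quasi-likelihood F test, 10 residual degrees of freedom for PFECHS and 29 for all libraries), with Benjamini-Hochberg adjustment over all genes at a threshold of 0.05. The standard error (SE) of a log2 fold change is its absolute value over the square root of F. The list means use log2 CPM with a prior count of 2. DESeq2 1.42.0, limma 3.58.1 (voom), other scalings, filters, sample sets, a replicate block, unrounded values and leaving out each pool were the alternatives. The calculation was tested on simulated data.

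Named genes were the 12 in each direction with the smallest p, no overlap, a mean log2 CPM of at least 1 and a usable symbol, up to 3 members per list, a set of indicator genes, and the 5 in each direction with the smallest p between compounds. A few genes that this rule names are not reported here. The members, the 50 lists and the rules were chosen with earlier results of these data known, so lists are described and not tested. Of 2061 list symbols, 1461 were found as written, 40 through synonyms of the RefSeq table (assembly GRCz12tu, names only), 427 after dropping a copy letter or number, and 133 were not found. Symbols came with 23598 of 25859 gene IDs; 3129 tested IDs share a symbol with another, and reads of near-identical copies may be split between them.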

Additional observations from a re-analysis of the deposited data

Results flagged for a closer look

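The change at 5 mg/L differed between PFECHS and FBSA by the test of the difference itself. It was higher with PFECHS in 1093 genes and lower in 988 (edgeR, adjusted p under 0.05, 22703 genes). These counts rest on the fit over all libraries. With only the 12 libraries of this pair 0 genes were called, and leaving out single pools gave 333 to 4917.

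The genes with the smallest p had these differences on the log2 scale, PFECHS minus FBSA: RTKN 2.25, SLC2A1 2.45, TACC1 1.50, gc2 2.96, BNIP3L 1.58, bcl2l10 -1.32, EVX2 -1.39, CTDSPL -0.98, TCIM -2.17 and NKAIN4 -1.45. In each of them FBSA had the larger change, but they were chosen by the p of this difference and do not describe other genes. For SLC2A1 it was -1.93 ± 0.26 with FBSA and 0.53 ± 0.25 with PFECHS. The edgeR adjusted p of these 10 differences ran from 0.000154 for RTKN to 0.00226 for NKAIN4.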

How the results depend on the processing

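None of the 24 genes with the smallest p, nor of the 10 named between PFECHS and FBSA, turned direction under any setting tried. Since these genes were chosen by p in the same data, that is not independent support. The settings tried for the 10 did not include the covariate. Some list medians did turn. With the covariate those of immediate early genes, the unfolded protein response and sterol synthesis went from -0.18, -0.12 and -0.13 to 0.11, 0.08 and 0.03, and those of lens and of PPAR and RXR receptors from 0.11 and 0.11 to -0.10 and -0.08. The medians of some other lists near 0 turned as well. For the comparison of 5 mg/L with control, DESeq2 called 28 genes and limma-voom 777, and edgeR called 0 when each pool was left out in turn (0 to 0). Genes higher at an unadjusted p under 0.05 numbered 3000 with limma-voom, 961 with all libraries in the fit, 584 with all 9 solvent controls, 162 with the share of values not whole as a covariate, chosen after seeing the data, and 807 to 1604 with single pools left out. Genes lower numbered 2604, 636, 381 and 83 in the same order, 778 with upper-quartile factors and 520 to 1617 with single pools left out. Against the lower concentrations DESeq2 called 14 genes, the covariate left 0 and leaving out 5 mg/L pools gave 0 to 2. For PFECHS minus PFOS, DESeq2 called 1 and leaving out pools gave 0 to 0. For PFECHS minus FBSA, the 12 libraries alone gave 0 and leaving out pools 333 to 4917. Lists with a median above 0 numbered 32 to 40 without single pools. Of the named genes, 390 alternative values kept their side of the threshold and 42 came to pass it, those of DESeq2 and limma-voom. With the replicate block edgeR called 0 genes, with 1306 higher and 1049 lower before adjustment, and 4 proteasome genes lower. The deviations of pools with the same number had correlations of 0.149, -0.076 and 0.155, and those with different numbers -0.27 to 0.175. With 3 pools per group this cannot settle whether the numbers pair the pools, and the main fit did not pair them. At the depth of these libraries, values of genes near 0.1 CPM, such as ihhb and MIA in the controls, rest on a few counts each.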
